A study of Homo sapiens with 6 samples.

Results

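The 42 genes described here encode pyruvate carboxylase, the pyruvate dehydrogenase (PDH) complex and its regulators, enzymes of the tricarboxylic acid (TCA) cycle, and enzymes and carriers that feed carbon into the cycle or take it out. They were taken by name from the 57123 genes of the count tables, from a list chosen with earlier results of these data known. RNA was sequenced from HEK293 cells, an established human embryonic kidney line, grown in DMEM with fetal calf serum, glutamine and antibiotics. The 6 libraries comprised 3 of wild type (WT) cells and 3 of HEK293 cells labelled MUL1(−/−), in which the study inactivated the mitochondrial E3 ubiquitin ligase MUL1 by CRISPR-Cas9. The labels do not say how many clones the knockout libraries came from, or whether replicates were separate cultures, so p-values measure only the spread between these libraries. The study followed labelled glucose into glutamate to estimate flux through PDH, pyruvate carboxylase and the cycle, and the comparison below gives the RNA of the genes of those steps in the same pair of genotypes.

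Pyruvate enters the cycle by 2 routes. The PDH complex oxidises it to acetyl-CoA, a step that PDH kinases switch off by phosphorylation and PDH phosphatases switch back on. Pyruvate carboxylase instead adds carbon dioxide to pyruvate and yields oxaloacetate, the classic anaplerotic reaction, which replaces cycle intermediates that are withdrawn. Glutamate, made into oxoglutarate by glutamate dehydrogenase or by aminotransferases, is the other large source of carbon, and the citrate carrier and ATP citrate lyase together carry acetyl units out of mitochondria for lipid synthesis.

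The counts of the targeted gene did not separate the genotypes. MUL1 had 15.2 to 19.0 counts per 1000000 (CPM, TMM-scaled) in WT libraries and 16.7 to 19.2 in the libraries labelled MUL1(−/−), and its log2 fold change of 0.14 ± 0.10 (SE, n = 3 against 3) did not pass the test (adjusted p = 0.321). RNA with a disrupted reading frame can still be counted, so this count does not check the labels, and every direction below is that of the libraries as labelled. Counts summed over exon bins totalled 121917971 to 142803296 per library. Of the 4 HEK293 markers, 2 were lower and 1 higher in MUL1(−/−) libraries. VIM was at 752 to 938 CPM in WT and 594 to 707 in MUL1(−/−) libraries (adjusted p = 0.0057), PAX2 at 7.83 to 10.7 and 1.93 to 3.35 (1.53e-06), NEFM at 1.69 to 1.84 and 3.12 to 3.95 (2.09e-05), and NEFL at 94.98 to 139 and 81.7 to 114 (0.0756). Of the markers of other cell types, the leukocyte gene PTPRC was at 0.0566 to 0.165 CPM in WT and 0.292 to 0.415 in MUL1(−/−) libraries (adjusted p = 0.00085), and the endothelial PECAM1 at 0.00787 to 0.0919 and 0.176 to 0.277 (0.00374). The fibroblast collagen COL1A1 was at 19.8 to 24.7 and 14.97 to 18.8 CPM (adjusted p = 0.00832), and the hepatocyte gene ALB at 0.0707 to 0.264 over all libraries, with no call. The part of these differences in the results below was not tested.

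All 42 genes passed the low-count filter. At an adjusted p under 0.05, 16 of them (38.1%) differed between the genotypes, which is close to the 37.5% of all 25125 tested genes that did. The called share was higher, 47.6%, among tested genes that averaged 10 CPM or more, as 38 of the 42 did. Of the 42, 5 rose in MUL1(−/−) libraries (11.9%, against 18.8% of tested genes) and 11 fell (26.2%, against 18.7%). When libraries were scaled by their totals alone, the split was 9 higher and 9 lower, and the share of higher genes among all called genes was 60.8% in place of 50.1%. The genes that rose were SLC25A11, IDH3A, OGDH, PDPR and SLC25A10, and those that fell were SLC25A1, GLUD2, OGDHL, MDH2, GLS2, SUCLG2, GLUD1, GOT1, DLD, PDHA1 and IDH3B.

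The changes were small. In edgeR's test 0 of the 42 passed an absolute log2 fold change above 1 as well, as against 8.11% of all tested genes, while 20 had an unadjusted p under 0.05; DESeq2 and limma-voom also put 0 past both thresholds. Among the 10221 tested genes whose mean reached 10 CPM, a level that 38 of the 42 reached, 2.01% passed both. The median absolute log2 fold change was 0.16 over the 42, 0.29 over all tested genes and 0.20 over those that reached 10 CPM. The median signed value was -0.06, beside -0.01 for all tested genes. In 20 of the 42 (47.6%) no library of one genotype overlapped with the other, beside 48.5% of tested genes. In bulk RNA of a culture, fewer cells that express a gene and less of its RNA per cell cannot be told apart.

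**Figure D1:**
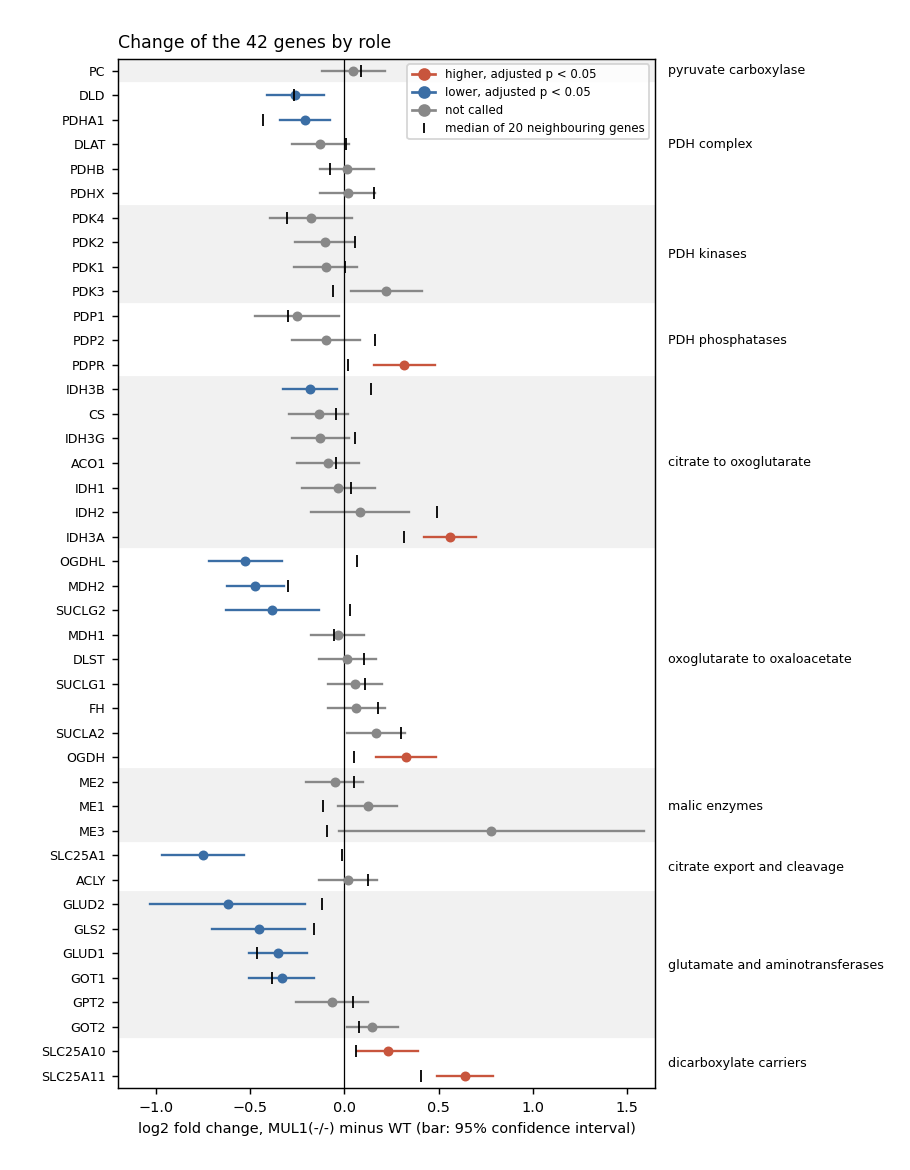
Log2 fold change of each of the 42 genes (MUL1(−/−) minus WT, points) with its 95% confidence interval (bars, edgeR), grouped by role, and the median log2 fold change of the 20 tested genes nearest on the chromosome (ticks). Values run from -0.75 for SLC25A1 to 0.78 for ME3, whose wide interval includes 0.

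Levels differed far more between the genes than between the genotypes. Per kilobase of exon bins, the highest WT means were 130.5 CPM per kb for MDH2 and 128 for SLC25A1, followed by IDH3B at 92.4, ACLY at 91.7 and CS at 78.4. The lowest were ME3 at 0.0308 and GLUD2 at 0.348 CPM per kb. Regulators lay low in the order, with the 4 PDH kinases between 1.91 and 7.73 CPM per kb and PDP1 at 1.41, whereas the PDH subunits lay between 12.5 and 53.6. PC was at 5.44 CPM per kb, below each PDH subunit, with 26.0% of its counts in bins that an exon of another gene touches. A read is counted in each bin it touches and all annotated bins enter the length, so this order depends on the annotation.

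Pyruvate carboxylase (PC, ENSG00000173599, chromosome 11 from 66848233 to 66958376, minus strand, GRCh38) gave different directions under different ways of counting its reads. Summed over its 50 exon bins, PC had 34.2, 30.9 and 31.6 CPM in WT libraries and 34.2, 31.1 and 34.7 in MUL1(−/−) libraries. The genotypes overlapped, and the log2 fold change of 0.05 had a 95% confidence interval of -0.12 to 0.21 (adjusted p = 0.677).

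The most counted bin of PC alone gave the opposite sign. That bin, from 66857883 to 66858269, had 6.33, 5.65 and 4.60 CPM in the WT libraries and 3.93, 3.67 and 4.002 CPM in those labelled MUL1(−/−), with no overlap. This gave -0.50 ± 0.11 on the log2 scale (adjusted p = 0.00176). In GENCODE 29 it belongs to 1 of the 14 PC transcripts, none of it coding, and it lies within an exon of LRFN4, a leucine-rich repeat gene read from the other strand. Counting did not separate strands, so reads of the 2 genes cannot be told apart there.

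Bins of PC that an exon of another gene touches held 32.7%, 33.1% and 26.0% of PC counts in WT libraries and 20.9%, 21.1% and 21.5% in MUL1(−/−) libraries. LRFN4 itself fell from 28.7 ± 5.05 to 21.5 ± 1.24 CPM (SD, n = 3, adjusted p = 0.00796), and it includes reads of the same stretch. On bins that no other gene touches, LRFN4 gave -0.38 ± 0.12 on the log2 scale (edgeR, adjusted p = 0.0162). Without its shared bins PC had 23.0, 20.7 and 23.4 CPM in the WT libraries and 27.0, 24.5 and 27.2 CPM in those labelled MUL1(−/−). On this count each MUL1(−/−) library lay above each WT library, and PC rose by 0.24 ± 0.08 on the log2 scale (95% confidence interval 0.06 to 0.42, adjusted p = 0.0394). The 3 ways of counting thus gave a small rise, no call and a fall for one gene.

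Within the PDH complex, 2 of the 5 genes fell and 0 rose (40% called, beside 37.5% of all tested genes). PDHA1 encodes the catalytic E1 alpha subunit that the kinases phosphorylate (ENSG00000131828, chromosome X from 19343893 to 19361705). It had 220, 205 and 214 CPM in the WT libraries and 185, 183 and 185 CPM in those labelled MUL1(−/−), without overlap. PDHA1 changed by -0.21 ± 0.06 on the log2 scale (adjusted p = 0.0155). The 20 neighbouring tested genes had a median of -0.43, so relative to them PDHA1 was higher by 0.22.

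DLD, the E3 subunit that PDH shares with the oxoglutarate and branched-chain dehydrogenases, fell from 284 ± 11.7 to 237 ± 17.8 CPM (SD, n = 3, log2 fold change -0.26 ± 0.07, adjusted p = 0.00902). Its neighbours had a median of -0.27. The E1 beta subunit PDHB, the E3-binding protein PDHX and the E2 subunit DLAT gave 0.01, 0.02 and -0.13 on the log2 scale with overlapping libraries. The PDHA1 call was lost without WT replicate 1 (adjusted p = 0.0639), MUL1(−/−) replicate 1 (0.0545) or MUL1(−/−) replicate 2 (0.0645), with library totals (0.0666), with no filter (0.0661) and with the most counted bin (0.237), and the DLD call without MUL1(−/−) replicate 1 (0.0721).

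None of the 4 PDH kinases passed edgeR's test, and 1 had an unadjusted p under 0.05. PDK3 had log2 fold change 0.22 (95% confidence interval 0.03 to 0.41, adjusted p = 0.061) and was called by DESeq2, by the most counted bin and in 6 other alternatives. PDK1, PDK2 and PDK4 had values from -0.18 to -0.10, with intervals that include 0. PDK1 and PDK4 are textbook targets of hypoxia signalling and of fasting, respectively.

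Of the phosphatase genes, PDPR, a regulatory subunit that restrains the phosphatase, rose from 30.6 ± 0.219 to 38.1 ± 2.67 CPM (SD, n = 3, log2 fold change 0.32 ± 0.08, adjusted p = 0.00397). Bins shared with other genes held 45.8% of its counts, and without them the value was 0.29. In addition, 18.4% of the 50-base words of its transcripts also occur in transcripts of other genes, so reads could come from a copy. The catalytic subunits PDP1 and PDP2 had log2 fold changes of -0.25 (adjusted p = 0.0719) and -0.10, and PDP1 was called with the most counted bin.

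From citrate to oxoglutarate, 1 of 7 genes rose and 1 fell (28.6% called, beside 37.5% of all tested genes). Both belong to the same enzyme, the NAD-linked isocitrate dehydrogenase, whose subunits moved apart. IDH3A, its catalytic alpha subunit (ENSG00000166411, chromosome 15 from 78131498 to 78171949), had 119, 113 and 115 CPM in the WT libraries and 166, 167 and 178 CPM in those labelled MUL1(−/−). The groups stood well apart, with a log2 fold change of 0.56 ± 0.06 (adjusted p = 9.15e-06).

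IDH3A was called in each of the 15 alternatives across genes. Shared bins held 28.9% of its counts, and without them the value was 0.58. Its neighbours had a median of 0.31, which leaves 0.24.

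IDH3B, a regulatory subunit, fell from 237 ± 6.35 to 209 ± 11.9 CPM (SD, n = 3, log2 fold change -0.18 ± 0.07, adjusted p = 0.043). This call held in 5 of the 15 alternatives, and it was lost when any library other than MUL1(−/−) replicate 3 was left out (adjusted p from 0.0655 to 0.234). The third subunit, IDH3G, gave -0.13 and did not pass.

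Citrate synthase (CS, ENSG00000062485, chromosome 12 from 56271699 to 56300392), which joins acetyl-CoA to oxaloacetate and is the reference step of the flux model, had 535, 477 and 442 CPM in the WT libraries and 438, 432 and 453 CPM in those labelled MUL1(−/−). WT replicate 3 lay within the range of the others and the groups overlapped (log2 fold change -0.14, 95% confidence interval -0.29 to 0.02, adjusted p = 0.165). CS passed the test only without WT replicate 3 (log2 fold change -0.20, adjusted p = 0.034). The cytosolic aconitase ACO1 and the NADP-linked dehydrogenases IDH1 (cytosolic) and IDH2 (mitochondrial) had log2 fold changes of -0.09, -0.03 and 0.08, none past the test.

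From oxoglutarate to oxaloacetate, 1 of 9 genes rose and 3 fell (44.4% called, beside 37.5% of all tested genes). OGDH and OGDHL, which encode alternative E1 subunits of the oxoglutarate dehydrogenase complex, changed in opposite directions. OGDH rose from 87.3 ± 6.93 to 110 ± 6.03 CPM (SD, n = 3, log2 fold change 0.33 ± 0.08, adjusted p = 0.00294). OGDHL (ENSG00000197444, chromosome 10 from 49734643 to 49762379) had 12.6, 12.4 and 13.4 CPM in the WT libraries and 9.04, 9.16 and 8.46 CPM in those labelled MUL1(−/−).

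The OGDHL groups did not overlap, and its log2 fold change was -0.53 ± 0.09 (adjusted p = 0.00033). Both genes were called in all 15 alternatives, and their neighbours had medians near 0 (0.05 and 0.07). The E2 subunit of the complex, DLST, gave 0.02 and did not pass.

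Mitochondrial malate dehydrogenase, MDH2, fell from 475 ± 38.2 to 343 ± 11.1 CPM (SD, n = 3, log2 fold change -0.47 ± 0.07, adjusted p = 9.27e-05), and its call was kept in all 15 alternatives. The median of its neighbours was -0.30. SUCLG2, the GTP-forming beta subunit of succinyl-CoA ligase, fell by 0.38 on the log2 scale (adjusted p = 0.0174), although WT replicate 3 at 27.4 CPM lay within the MUL1(−/−) range. This call was lost without WT replicate 1 (adjusted p = 0.0896), WT replicate 2 (0.0862) or MUL1(−/−) replicate 1 (0.115), and 12.9% of the 50-base words of SUCLG2 also occur in transcripts of other genes. The ATP-forming SUCLA2, the shared alpha subunit SUCLG1, fumarase FH and the cytosolic MDH1 had log2 fold changes from -0.04 to 0.17 and none was called by edgeR. SUCLA2 (0.17, adjusted p = 0.0779) was called with library totals, with at least 1 CPM in 3 libraries and without WT replicate 3.

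The carriers of cycle intermediates held the 2 largest called changes of the 42 genes. SLC25A1, the mitochondrial citrate carrier (ENSG00000100075, chromosome 22 from 19175575 to 19178830, minus strand), had 316, 273 and 219 CPM in the WT libraries and 164, 164 and 152 CPM in those labelled MUL1(−/−). The WT libraries differed among themselves by more than the MUL1(−/−) libraries did, yet each stood above them. The log2 fold change was -0.75 ± 0.10 (adjusted p = 3.93e-05), a mean ratio of 0.595, and the median of its neighbours was -0.01. ATP citrate lyase (ACLY), which acts next on the exported citrate, was at 478 ± 40.4 and 484 ± 20.7 CPM (SD, n = 3) and gave 0.02 (95% confidence interval -0.14 to 0.17).

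SLC25A11, the oxoglutarate/malate carrier of the malate-aspartate shuttle (ENSG00000108528, chromosome 17 from 4937130 to 4940251), had 116, 105 and 119 CPM in the WT libraries and 178, 170 and 182 CPM in those labelled MUL1(−/−). No library overlapped, and the log2 fold change was 0.64 ± 0.07 (adjusted p = 4.80e-06). Its neighbours had a median of 0.41, leaving 0.23. SLC25A10, the dicarboxylate carrier, rose by 0.23 ± 0.08 (adjusted p = 0.0269). Its call was lost without WT replicate 1 (adjusted p = 0.0896), WT replicate 2 (0.087) or MUL1(−/−) replicate 1 (0.102) and with the most counted bin (0.0955), and 41.2% of its 50-base words occur in transcripts of other genes.

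Among the 3 malic enzymes, which turn malate back into pyruvate, edgeR called 0 and 0 had an unadjusted p under 0.05. The cytosolic ME1 and mitochondrial ME2 gave log2 fold changes of 0.12 and -0.05. ME3 was at 0.118 ± 0.0450 CPM in the WT libraries and 0.202 ± 0.0631 CPM in the others (SD, n = 3), too low for its log2 fold change of 0.78 to be told from 0 (95% confidence interval -0.03 to 1.59). DESeq2 and limma-voom called none of the 3, and scaling by library totals called ME1.

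Of the 6 genes that join glutamate and the cycle, 4 fell and 0 rose (66.7% called, beside 37.5% of all tested genes). No test of the group was run. Of the 4, GLUD2 and GLS2 are limited by copied or shared sequence. GLUD1 and GOT1 changed sign when the median of their neighbours was subtracted. GLUD1, glutamate dehydrogenase, which releases ammonia from glutamate to give oxoglutarate (ENSG00000148672, chromosome 10 from 87050486 to 87094866), had 178, 163 and 150 CPM in the WT libraries and 127.4, 131.6 and 126.99 CPM in those labelled MUL1(−/−). The groups did not overlap, and the log2 fold change was -0.35 ± 0.07 (adjusted p = 0.00132). With a neighbour median of -0.46, GLUD1 was higher than its surroundings by 0.11.

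GLUD2, an intronless copy on chromosome X (ENSG00000182890, from 121047588 to 121050080), was listed with 0.905, 0.997 and 0.699 CPM in the WT libraries and 0.530, 0.567 and 0.597 CPM in those labelled MUL1(−/−). Its log2 fold change of -0.62 ± 0.19 passed the test (adjusted p = 0.0198), and the call was lost when WT replicate 1 or 2 or MUL1(−/−) replicate 1 or 2 was left out (adjusted p from 0.0547 to 0.104). The coding sequences of GLUD1 and GLUD2 are identical at 97.6% of 1674 positions in GENCODE 29, and the GLUD2 counts are uncertain for that reason. For GLUD1, 23.7% of the 50-base words of its transcripts also occur in transcripts of other genes.

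GOT1, the cytosolic aspartate aminotransferase, fell from 59.5 ± 6.55 to 47.3 ± 0.353 CPM (SD, n = 3, log2 fold change -0.33 ± 0.08, adjusted p = 0.00449), beside a neighbour median of -0.38. Its mitochondrial counterpart GOT2 gave 0.15 (95% confidence interval 0.01 to 0.29, adjusted p = 0.0827), and was called with library totals and with at least 1 CPM in 3 libraries. GLS2, the liver-type glutaminase, fell by 0.45 (adjusted p = 0.00582), but 89.7% of its counts lay in bins of other genes too, and without them the log2 fold change was -0.48 with an adjusted p of 0.0872. The most counted bin of GLS2 gave -0.33 (adjusted p = 0.0931). Alanine aminotransferase 2 (GPT2) gave -0.07 and did not pass.

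The position of the genes was described by the median log2 fold change of the 10 tested genes on each side. Over all tested genes these medians ran from -0.45 at the 5th percentile to 0.52 at the 95th. For 13 of the 16 called genes the median had the same sign as the gene, and for 7 of these 13 it was over 0.5 times the gene's own value. When it was subtracted, PDHA1, DLD, GOT1 and GLUD1 changed sign, whereas SLC25A1, OGDH, OGDHL, PDPR, SUCLG2 and SLC25A10 lay beside medians between -0.01 and 0.07. The part of neighbourhood in these changes was not tested.

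Ratios between related enzymes within a library do not depend on the scaling of libraries. Of 11 ratios, 8 did not overlap between the genotypes, and each of these had p = 0.1 in the exact two-sided permutation test, the smallest that 3 against 3 allows (adjusted p = 0.138 over the 11). Single genes did not overlap in 48.5% of those tested, and no share over other gene pairs was computed. On the log2 scale and per kilobase, OGDHL over OGDH went from -2.90 ± 0.153 in WT to -3.76 ± 0.137 in MUL1(−/−) libraries (SD, n = 3), a difference of -0.86. GOT1 over GOT2 differed by -0.48 and MDH1 over MDH2 by 0.43, so the cytosolic form was relatively lower in one pair and higher in the other.

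PDK1 and PDK2 each lay lower relative to PDK3, with a difference of -0.33 in both cases, and of -0.71 and -0.51 with the most counted bin of each gene. PC over PDHA1, the carboxylase against the dehydrogenase, differed by 0.26 with summed bins and by -0.37 with the most counted bin of each gene. The most counted bin of PC lies within an exon of LRFN4, so the second value cannot be assigned to PC alone. The ratios that overlapped were SUCLA2 over SUCLG2 with 0.55 and ME3 over ME2 with 0.84, both at p = 0.2, and IDH1 over IDH2 with -0.15 at p = 0.7 (exact permutation tests).

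The use of single exon bins within a gene, tested against the gene as a whole, differed in 6 of the 40 genes that could be tested (15%; ME3 and GLUD2 were not tested), beside 11.3% of the 16222 genes tested over all. These were OGDH, SLC25A1, PC, ME2, DLD and MDH2. Those in PC and DLD rested on bins shared with a gene of the other strand. In PC all 3 bins with p under 0.001 were of this kind, and without shared bins the adjusted p was 0.331 in place of 2.98e-05. In DLD the bin with the smallest p (relative log2 fold change -0.31) lies in an exon of LAMB1, a laminin gene that fell from 260 ± 24.5 to 158 ± 3.63 CPM (SD, n = 3, adjusted p = 3.37e-06), and without it the adjusted p was 1.00.

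OGDH had the smallest adjusted p for bin use, 2.07e-07. A pair of alternative coding exons on chromosome 7 moved differently: one from 44647444 to 44647534, held by 2 of the 10 OGDH transcripts in GENCODE 29, and one from 44647657 to 44647759, held by 5, with 0 transcripts holding both. They are printed because the share of the upstream exon in the pair differed. Both run 5′ to 3′ on the plus strand of GRCh38, with capitals for the 54 bases that are identical in a global alignment of the pair.
OGDH upstream exon: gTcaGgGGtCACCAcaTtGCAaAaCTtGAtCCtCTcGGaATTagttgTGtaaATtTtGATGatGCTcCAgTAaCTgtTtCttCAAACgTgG
OGDH downstream exon: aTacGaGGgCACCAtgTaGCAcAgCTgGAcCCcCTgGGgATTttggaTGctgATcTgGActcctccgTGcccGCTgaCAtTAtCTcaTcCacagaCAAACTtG

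The upstream exon took 28.5%, 30.8% and 32.1% of the counts of the pair in WT libraries and 17.6%, 18.4% and 14.2% in MUL1(−/−) libraries. The groups stood apart by more than 10 percentage points (exact permutation p = 0.1, the smallest possible). The exon was chosen for its small p in these same libraries, so its share is a description and not a further test. Relative to the gene, the upstream exon changed by -0.68 on the log2 scale, while that of the downstream exon was 0.10. The counts behind the upstream exon were 86 to 106 in WT and 48 to 62 in MUL1(−/−) libraries.

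The bin of OGDH with the smallest p (6.83e-11) lies further downstream, from 44676150 to 44676594, in 1 transcript that runs on past the end of an exon. It held 71 to 97 counts in WT and 35 to 40 in MUL1(−/−) libraries, a relative log2 fold change of -0.94. The other 42 tested bins of OGDH ran from -0.54 to 0.26. OGDH as a whole rose while these 2 short stretches had fewer counts. Of the other 42 tested bins, 4 were also lower in CPM, all at the 5′ end.

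In SLC25A1 the first exon stood apart from the rest of the gene. Its 3 bins had relative log2 fold changes of 0.98, 0.76 and 0.50 from the 5′ end on (p from 4.61e-10 to 6.04e-06), and the other 17 bins lay between -0.27 and 0.13. In absolute terms, the first bins from the 5′ end had WT means of 0.989 and 4.68 CPM and MUL1(−/−) means of 1.56 and 5.91 CPM. The bin nearest the second exon was at 8.84 CPM in the WT libraries and 8.63 CPM in those labelled MUL1(−/−). The most counted bin, at the 3′ end, went from 56.3 to 31.4. The first exon took 5.65%, 4.36% and 6.29% of SLC25A1 counts in WT and 9.71%, 10.4% and 10.1% in MUL1(−/−) libraries, without overlap (exact permutation p = 0.1, the smallest possible). This share too was chosen after the bins were seen, so it is a description and not a further test. In CPM all 17 later bins were lower in the libraries labelled MUL1(−/−).

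The coding part of that exon in 1 of the 5 transcripts of the gene is printed, with the start codon in capitals. It runs from 19178580 to 19178673 on chromosome 22 of GRCh38, minus strand. It covers the bin nearest the second exon and part of the next bin upstream. The rest of the exon, with the bin of the largest relative log2 fold change (0.98), is not printed.
SLC25A1 first coding exon: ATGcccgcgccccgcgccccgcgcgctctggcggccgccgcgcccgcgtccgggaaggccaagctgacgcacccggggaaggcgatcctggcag

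ME2 and MDH2 each had a bin near the 3′ end that differed. In ME2 the last bin, which 1 of 19 transcripts holds (chromosome 18 from 50947891 to 50954257), had a relative log2 fold change of 0.32 (adjusted p of the gene 0.00711). In MDH2 the bin with the smallest p (chromosome 7 from 76067068 to 76067506) also had 0.32 and was at 2.09 and 2.07 CPM in the genotypes while the gene fell. A bin nearer the 5′ end of MDH2 (from 76048576 to 76049047) had a relative log2 fold change of 0.29, also with p under 0.001. The ME2 call was lost without WT replicate 1 or 2 or MUL1(−/−) replicate 2, and the MDH2 call without WT replicate 1 or 2 or MUL1(−/−) replicate 1 or 3. Leaving out WT replicate 1 or WT replicate 2 kept only OGDH, SLC25A1 and PC, 3 genes in place of 6.

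A further 34 genes that work beside these, such as succinate dehydrogenase subunits, the pyruvate carrier, PEP carboxykinases and branched-chain dehydrogenase genes, were counted for context. Of these 7 rose (20.6%, beside 18.8% of tested genes) and 11 fell (32.4%, beside 18.7%), with a median log2 fold change of 0.00. The called share was 52.9%, beside 37.5% of all tested genes and 47.6% of those that reached 10 CPM. The one gene past both thresholds was PCK2, the mitochondrial PEP carboxykinase, which makes phosphoenolpyruvate from oxaloacetate. It had 44.5, 39.6 and 29.2 CPM in the WT libraries and 17.9, 19.4 and 14.6 CPM in those labelled MUL1(−/−), with no overlap and a log2 fold change of -1.12 ± 0.13 (adjusted p = 1.21e-05).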

How the data were processed

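Per the labels, total RNA of HEK293 WT and MUL1(−/−) cells was sequenced in 6 libraries. The submitters' processing notes name Trimmomatic 0.36, STAR 2.5.2b and the GRCh38 build. The counting program is not given in the sources used here. The deposited values are raw read counts per exon bin of a flattened annotation, which the authors did not normalize. A read is counted in each bin it touches, without regard to strand (11 pairs of bins of one span on opposite strands had a median count ratio of 1), so sums over bins exceed the reads and understate counting error.

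The count of a gene was the sum over its bins. Under joined identifiers, GENCODE 29 exons of the same strand decided to which gene a bin belonged, and 15566 joined bins of several genes were given to none. Gene counts were fitted with edgeR 4.0.16 in R 4.3.3 (TMM, filterByExpr, quasi-likelihood test) with Benjamini-Hochberg adjustment over all 25125 tested genes, and bins with diffSpliceDGE over 16222 genes with Simes p-values. DESeq2 1.42.0 and limma 3.58.1 (voom) were alternatives, beside RLE factors, library totals, filters, the replicate block, the most counted bin, unshared bins and each library left out. Python 3.11.15 and scipy 1.17.1 gave the exact permutation tests. On simulated counts of the 25125 genes with 200 changed by a log2 fold change of 2, edgeR recovered 200 with 3 false calls. Recovery of changes as small as those called among the 42 genes was not tested.

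Chi-square per degree of freedom between libraries of one genotype was 2.95 to 10.8, above the sampling noise of independent counts, and all libraries were used. Reads counted in several bins also raise this value, and their part in it was not tested. The members, lists and tests were chosen with earlier results of these data known. Named in full are PC, called genes with an absolute log2 fold change of at least 0.5, and PDHA1, CS and GLUD1; of the context genes, those past both thresholds; of bins, the smallest p of each called gene. The OGDH exon share, the SLC25A1 first exon share and bin use without shared bins were chosen after seeing the data.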

Additional observations from a re-analysis of the deposited data

How the results depend on the processing

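With library totals or at least 1 CPM in 3 libraries, 9 and 8 of the 42 genes were higher in place of 5, and the latter filter left 777 of all tested genes past both thresholds in place of 2037. Leaving out 1 library gave 4 to 6 higher, 7 lower without WT replicate 1 and 6 lower without MUL1(−/−) replicate 1 (range 6 to 11), and 3 to 6 genes with a bin-usage call. PC was at -0.50 with the most counted bin, which lies within an exon of LRFN4. Less the median of the neighbours, PDHA1 was at 0.22, DLD at 0.0046, GOT1 at 0.053 and GLUD1 at 0.11. SLC25A1, SLC25A11, IDH3A, OGDH, OGDHL, MDH2, GOT1, GLUD1 and PDPR kept direction and call in all 15 alternatives across genes, and the other called genes kept their direction. The cause of each change was not tested. The ME3 ratio has no value with the most counted bin, which had a count of 0.

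Same-numbered libraries did not deviate together in all 3 pairs (r of -0.07, 0.18 and 0.11 over 15858 genes), so the numbers were not taken as a pairing. With the replicate block, 6 genes were higher and 11 lower (PDK3 was added), and 6 had a bin-usage call. GLUD2 and ME3 lie near the depth limit, and shared or copied sequence limits GLS2, GLUD1, GLUD2, SUCLG2, PDPR, SLC25A10 and PC.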
